A study of Mus musculus with 10 samples.

Results

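The genes described are the 6 NR4A and EGR early response factors Nr4a1, Nr4a2, Nr4a3, Egr1, Egr2 and Egr3. They were taken by gene name from 35275 genes in the count table, and all 6 were among the 14729 genes with enough counts to test. RNA came from 2/20 cells, a wild-type mouse cytotoxic T lymphocyte (CTL) line that recognises the AH1 peptide. All groups came from cultures kept with AH1 peptide at 1 µg/mL, interleukin-2 at 10 units/mL and lethally irradiated BALB/c spleen cells, renewed each week. CTLs were harvested after 24 h of co-culture with 4T1 mammary carcinoma cells, after 4 h of co-culture, 24 h after activation with 1 µg/mL AH1 peptide, 4 h after that activation, or at rest with no treatment, with 2 libraries in each of the 5 groups. Cells were captured on magnetic beads through the leukocyte surface protein CD45 before RNA extraction, and no library of 4T1 cells alone was analysed here. The line is a single antigen-specific line, and the labels do not say whether the 2 libraries of a group came from separate cultures, so p-values measure the spread between libraries that may be technical.

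NR4A proteins are orphan nuclear receptors that bind DNA without a known classical hormone ligand, and EGR proteins are zinc finger factors that bind GC-rich sites. Both families are immediate early genes: signals from the T cell receptor reach their promoters within minutes through factors such as CREB, SRF with its ETS partners, NFAT and MEF2, and their transcripts are short-lived. In T cells, Nr4a1 (Nur77) is widely used as a reporter of receptor signalling, NR4A proteins have been linked to exhaustion and tolerance, Egr2 and Egr3 to restraint of activation, and EGR activity is held back by the NAB corepressors, which are themselves EGR targets.

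The promoters of the NR4A genes are shown because all 3 transcripts rose at 4 h with peptide in the results that follow. RefSeq promoter windows (build GRCm38.p6, from 250 bases before to 50 bases after a transcription start) were found for 4 of the 6 genes, and Egr1 and Egr3 are named only. Each sequence below runs 5′ to 3′ on the strand of its gene, from 250 bases before the start to the last marked base. Capitals mark the core of the cyclic AMP response element (CRE), TGACG, read on either strand so that CGTCA is the same core on the other strand, and in Egr2 also a CArG box, the site of SRF.
Nr4a1, chr15:101266596-101266810, plus strand: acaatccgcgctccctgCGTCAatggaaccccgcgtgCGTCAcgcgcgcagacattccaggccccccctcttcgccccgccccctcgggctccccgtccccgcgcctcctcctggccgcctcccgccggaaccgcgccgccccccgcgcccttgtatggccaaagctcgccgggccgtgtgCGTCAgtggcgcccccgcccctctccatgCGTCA
Nr4a2, chr2:57124110-57124253, minus strand: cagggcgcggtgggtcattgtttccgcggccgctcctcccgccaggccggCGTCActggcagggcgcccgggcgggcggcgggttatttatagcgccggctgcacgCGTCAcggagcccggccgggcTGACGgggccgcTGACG
Nr4a3, chr4:48045055-48045162, plus strand: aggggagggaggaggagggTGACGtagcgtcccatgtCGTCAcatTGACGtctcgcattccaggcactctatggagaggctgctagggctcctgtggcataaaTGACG
Egr2, chr10:67537619-67537818, plus strand: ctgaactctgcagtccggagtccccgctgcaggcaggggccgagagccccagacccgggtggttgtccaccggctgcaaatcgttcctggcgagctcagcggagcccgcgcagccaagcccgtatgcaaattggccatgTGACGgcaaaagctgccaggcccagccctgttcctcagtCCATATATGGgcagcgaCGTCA

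Each of the 3 NR4A windows held 4 CRE cores. Of 32851 promoter windows of the same length, 20.8% held at least 1 core and 0.231% (76 windows, the NR4A windows among them) held 4 or more. Among the 6056 windows with a GC content between those of the NR4A windows (64.7% to 81.7%), 0.578% held 4 or more. The count of 4 was chosen after the NR4A windows had been read, so these shares describe the windows and are no test. None of the members' windows held the full palindrome TGACGTCA, which 1.79% of windows did, so no marked cores overlapped. Of the 5 Egr2 windows, the one shown was chosen because it held both a core and a CArG box. It held 2 cores and 1 CArG box, and CArG boxes occurred in 1.63% of windows. The Egr2 window of the start at 67535499 held none of the motifs searched. That of the start at 67537566 held 1 CArG box, 3 Ets cores CCGGAA and 3 NFAT cores GGAAA, but no CRE core. The Nr4a1 window also held 1 EGR site of the form GCGGGGGCG, on the minus strand, a sequence found in 2.91% of windows, and 1 Ets core CCGGAA (14.9% of windows). The NFAT core GGAAA, found in 61.3% of windows, occurred once each in the Nr4a2 window and the Egr2 window shown. No member window held the longer Ets site CCGGAAGT (3.89% of windows), an AP-1 site TGANTCA (7.81% of windows), an NBRE AAAGGTCA (the monomer site of NR4A proteins, 1.51%) or an EGR site GCGTGGGCG (0.612%), on either strand. Outside the members, 60 tested genes had a window with 4 or more CRE cores. Of these, 26 rose and 17 fell at 4 h with peptide against rest, or 43.3% and 28.3%. Of the 10207 tested genes that had any window, 30.9% rose and 31.9% fell. The sets were not matched for GC content and the count of 4 came from the NR4A windows, so these shares are no test either. A match describes letters in a window and is not a measured binding site.

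**Figure D1:**
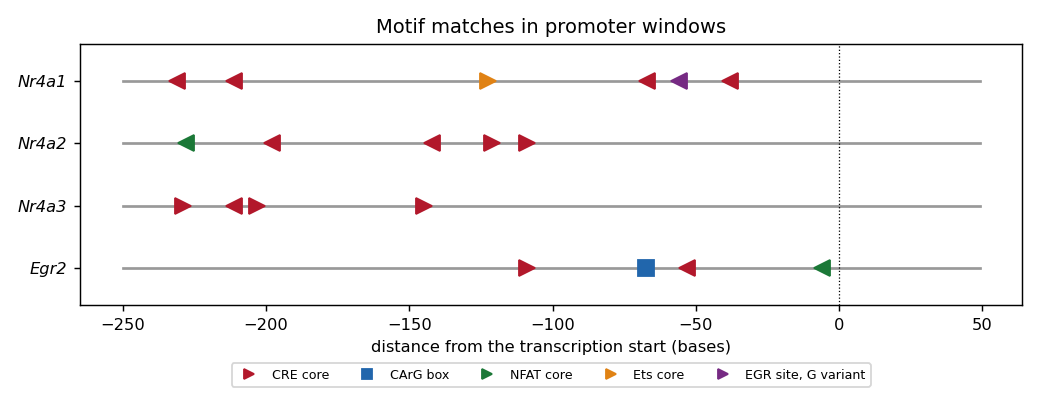
Positions of motif matches in the promoter windows of Nr4a1, Nr4a2, Nr4a3 and Egr2 (distance from the transcription start in bases), with arrowheads giving the strand of each match. Each NR4A window holds 4 CRE cores. The Egr2 window shown, chosen because it holds both motifs, has 2 cores beside a CArG box.

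Library totals ran from 14104658 to 22910633 counts, and the members had between 2 and 33223 counts in a library. Levels are CPM, read counts set to a common library size of 1000000, on library sizes scaled by the trimmed mean of M-values (TMM), and the TMM factors were 0.711 and 0.758 in the peptide 4 h libraries and 1.03 to 1.11 in the other 8. T cell identity transcripts (17 genes, Cd3e, Cd8a and Ptprc among them) were detected in every group and summed to 1312 to 1385 CPM in co-culture at 24 h, 3143 to 3292 in co-culture at 4 h, 4344 to 4699 with peptide at 24 h, 14842 to 15297 with peptide at 4 h and 8918 to 9248 at rest. Of these genes 16 were detected in co-culture and at rest and 17 with peptide. Epithelial transcripts (25 genes, Krt8, Krt18 and Epcam among them), of the kind that carcinoma cells express, summed to 4821 to 4963 CPM in co-culture at 24 h, 5585 to 5800 in co-culture at 4 h, 11.6 to 18.9 with peptide at 24 h, 20.1 to 22.7 with peptide at 4 h and 17.9 to 18.3 at rest. In all 4 co-culture libraries the epithelial sum was above the T cell identity sum, which goes against a label of T cells alone. Stromal transcripts (14 genes found) summed to 1208 to 2978 CPM in co-culture, 7.19 to 100.4 CPM with peptide at 24 h and 15.04 to 17.7 CPM with peptide at 4 h, against 24.6 to 28.4 CPM at rest. B cell transcripts (13 genes) summed to 0.788 to 1.70 CPM in co-culture, 215 to 454 CPM with peptide at 24 h and 471 to 558 CPM with peptide at 4 h, against 3.98 to 4.46 CPM at rest. Myeloid transcripts (13 genes found) summed to 21.4 to 41.2 CPM in co-culture, 42.2 to 67.3 CPM with peptide at 24 h and 139 to 195 CPM with peptide at 4 h, against 45.3 to 50.2 CPM at rest. Other cell types can express NR4A and EGR genes too, and their part in the results was not tested. In bulk RNA, fewer cells of a type and less RNA per cell cannot be told apart.

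Nr4a3, which encodes the receptor NOR1 (chromosome 4, positions 48045153 to 48086447, plus strand), had the widest range of the 6 genes. Its level was 4.78 and 3.65 CPM in the co-culture libraries of 24 h, and 79.8 and 97.2 CPM in those of 4 h. It was 9.48 and 11.4 CPM with peptide at 24 h, 2438 and 2427 CPM with peptide at 4 h, and 17.5 and 17.4 CPM at rest. No libraries of neighbouring groups overlapped, so the order was peptide 4 h, co-culture 4 h, rest, peptide 24 h and co-culture 24 h. Per kilobase of the deposited gene length, Nr4a3 stood at place 199 of the 14729 tested genes at 4 h with peptide, and at place 8610 at rest.

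Nr4a1, which encodes Nur77 (chromosome 15, positions 101266846 to 101274792, plus strand), kept the same order over a narrower range. It had 9.60 and 7.46 CPM in 24 h co-culture, 33.6 and 36.4 CPM in 4 h co-culture, 11.02 and 9.18 CPM with peptide at 24 h, 159.8 and 187 CPM with peptide at 4 h, and 12.4 and 11.5 CPM at rest. The libraries of the 24 h groups overlapped each other, and those of the other groups did not. Nr4a2, which encodes NURR1 (chromosome 2, positions 57106830 to 57124003, minus strand), had 3.62 and 4.27 CPM in 24 h co-culture, 14.5 and 19.5 CPM in 4 h co-culture, 3.46 and 5.79 CPM with peptide at 24 h, 123 and 149 CPM with peptide at 4 h, and 12.1 and 13.3 CPM at rest. Its groups also stood in that order, again with overlap between the 24 h groups alone.

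Egr2, a zinc finger factor linked to T cell anergy (chromosome 10, positions 67535475 to 67542188, plus strand), had 3.34 and 2.01 CPM in 24 h co-culture, 19.3 and 24.4 CPM in 4 h co-culture, 1.01 and 2.57 CPM with peptide at 24 h, 175 and 198 CPM with peptide at 4 h, and 27.9 and 34.3 CPM at rest. Rest was second in its order, above co-culture at 4 h, and the 24 h groups overlapped. Egr3, its close relative (chromosome 14, positions 70077445 to 70080157, plus strand), was measured on few counts. It had 0.649 and 0.154 CPM in 24 h co-culture, 3.52 and 3.28 CPM in 4 h co-culture, 0.746 and 2.57 CPM with peptide at 24 h, 17.8 and 27.5 CPM with peptide at 4 h, and 0.112 and 2.88 CPM at rest. The 2 rest libraries held 2 counts (95% exact Poisson interval 0.242 to 7.22, counting error only) and 42 counts (30.3 to 56.8) of Egr3, a 25.7-fold difference in CPM. For Egr3 the rest libraries overlapped with those of peptide 24 h and with those of co-culture 24 h, which did not overlap each other. The peptide 4 h and co-culture 4 h libraries stood above all of these.

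**Figure D2:**
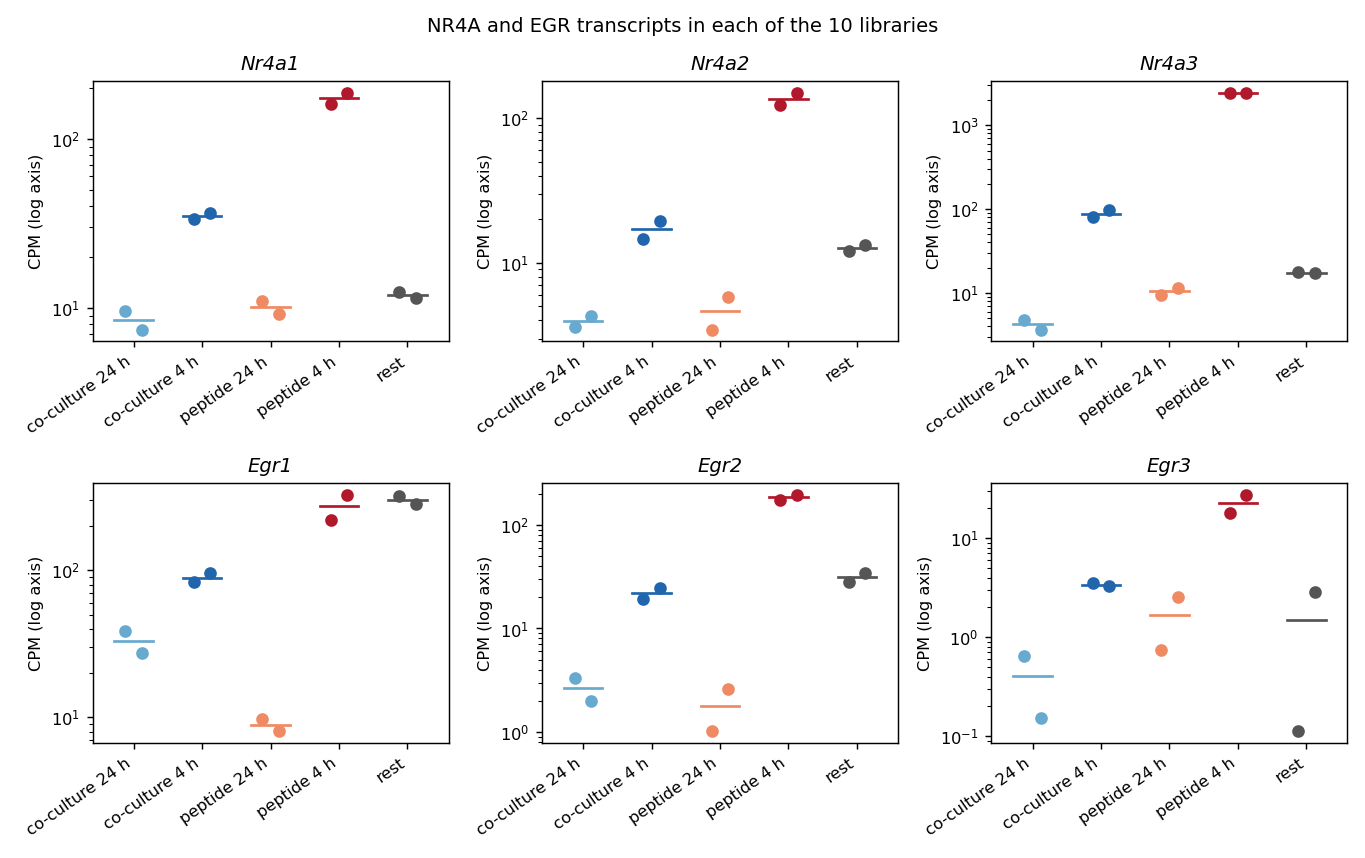
CPM (log axis) of the 6 genes in each library (points) with the mean of each group (line), for co-culture at 24 h and 4 h, peptide at 24 h and 4 h, and rest. Peptide 4 h is the highest group for 5 genes, while the Egr1 libraries of peptide 4 h (218 and 328 CPM) and rest (320.1 and 282 CPM) overlap.

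Egr1 (chromosome 18, positions 34859823 to 34864984, plus strand), the founding EGR family member, had another order. It had 38.9 and 27.2 CPM in 24 h co-culture, 82.9 and 95.3 CPM in 4 h co-culture, 9.80 and 8.03 CPM with peptide at 24 h, 218 and 328 CPM with peptide at 4 h, and 320.1 and 282 CPM at rest. Rest had the highest mean and overlapped with peptide at 4 h, while co-culture at 4 h, co-culture at 24 h and peptide at 24 h followed without overlap. Per kilobase, Egr1 was at place 947 of the 14729 tested genes at rest, the highest of the 6, and at place 1455 at 4 h with peptide.

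The make-up of each family therefore differed between groups. Of the summed NR4A level per kilobase, Nr4a3 made up 14.6% and 13.2% in the co-culture 24 h libraries, 44.2% and 45.7% in the co-culture 4 h libraries, 23.4% and 27.1% in the peptide 24 h libraries and 81.2% and 78.3% in the peptide 4 h libraries, against 26.7% and 26.6% at rest. Nr4a1 was the leading NR4A transcript at 24 h, with 67.7% and 62.2% in co-culture and 62.9% and 50.7% with peptide, against 43.7% and 40.6% at rest. The summed NR4A level was 525 and 542 CPM per kilobase with peptide at 4 h, against 11.5 and 11.4 at rest. In the EGR family, Egr1 made up 84.6% and 88.6% in co-culture at 24 h, 67.3% and 66.9% in co-culture at 4 h, 71.6% and 40.1% with peptide at 24 h and 40.5% and 45.9% with peptide at 4 h, against 88.2% and 82.2% at rest. The summed EGR level was 10.3 and 6.86 CPM per kilobase in co-culture at 24 h, 27.5 and 31.8 in co-culture at 4 h, 3.05 and 4.47 with peptide at 24 h and 120.3 and 159 with peptide at 4 h, against 80.9 and 76.4 at rest. Resting CTLs thus held an EGR pool made mainly of Egr1, and the peptide 4 h pool held Egr1 and Egr2 at similar levels (60.9 ± 17.3 and 62.9 ± 5.38 CPM per kilobase, SD, n = 2 each). These shares do not depend on the scaling of the libraries, but they do depend on the deposited gene lengths. With peptide at 24 h the EGR shares also rest on few counts, 19 and 47 of Egr2 and 14 and 47 of Egr3.

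**Figure D3:**
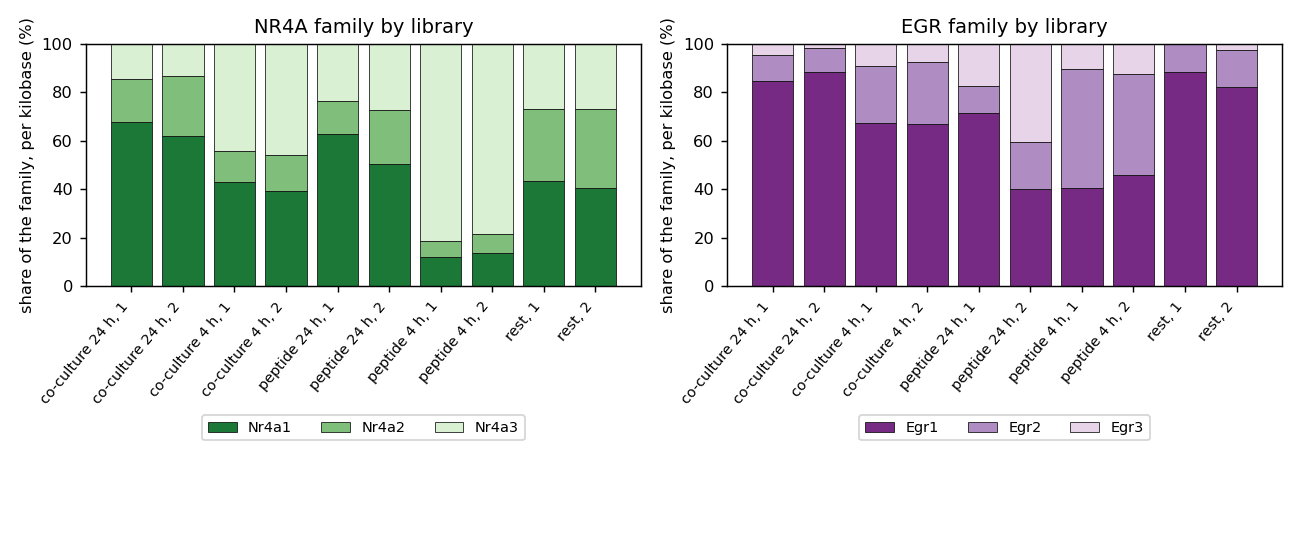
Share of the summed per-kilobase level of the NR4A family (left) and the EGR family (right) held by each gene, in percent, for each of the 10 libraries. Nr4a3 holds 78.3% to 81.2% of the NR4A pool at 4 h with peptide, and Egr1 holds 82.2% to 88.2% of the EGR pool at rest.

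Against rest, 5 of the 6 genes rose at 4 h with peptide, in a comparison in which 28.8% of tested genes rose and 30.7% fell (edgeR quasi-likelihood test, Benjamini-Hochberg adjusted p under 0.05, as in all that follows). Nr4a3 rose by 7.12 ± 0.19 on the log2 scale (SE), with 2433 ± 8.42 CPM against 17.5 ± 0.11 CPM at rest (SD, n = 2 each), a 139-fold difference (adjusted p = 6.75e-11). Nr4a1 rose 14.5-fold (log2 3.86 ± 0.19, adjusted p = 3.46e-09) and Nr4a2 rose 10.7-fold (3.42 ± 0.24, adjusted p = 6.36e-08). Egr2 rose 5.99-fold, to 186 ± 16.0 CPM, against 31.1 ± 4.52 CPM at rest (2.58 ± 0.26, adjusted p = 1.78e-06). Egr3 rose by 3.97 ± 0.83 (adjusted p = 0.00101), a size that rests on the rest libraries, since it was 2.98 without rest replicate 1 and 7.57 without rest replicate 2. Egr1 did not pass the test, with 273 ± 77.4 CPM against 301 ± 27.2 CPM at rest and a log2 difference of -0.14 whose 95% interval ran from -0.58 to 0.30 (adjusted p = 0.584). Scaled by library totals alone, Egr1 was lower (-0.63, adjusted p = 0.0289), and scaled by T cell identity genes it was lower by 0.98 (adjusted p = 0.00194), while without peptide 4 h replicate 1 the difference was 0.12. The median of all tested genes was -0.54 with library totals and -0.91 with T cell identity scaling. Relative to these medians Egr1 stood at -0.09 and -0.08. Here and below, a change of scaling leaves values relative to the median nearly the same by construction. The 5 rises ran from 1.72 (Egr2) to 6.25 (Nr4a3) under T cell identity scaling. B cell and myeloid transcripts were highest in the peptide 4 h libraries, and their part in these differences was not tested.

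At 24 h with peptide, 4 of the 6 genes were lower than at rest, where 26.1% of tested genes fell and 29.2% rose. Egr1 fell to 8.92 ± 1.25 CPM, against 301 ± 27.2 CPM at rest, 33.7-fold lower (log2 -5.08 ± 0.25, adjusted p = 6.17e-09), and ranked 186 among the lowest fold changes of 14729 genes. Egr2 fell 17.4-fold (-4.12 ± 0.32, adjusted p = 2.66e-07), and its log2 difference was -4.92 without peptide 24 h replicate 2. These falls were -4.20 for Egr1 and -3.22 for Egr2 under T cell identity scaling. Nr4a2 fell by 1.46 ± 0.25 (adjusted p = 2.57e-04), a call lost under T cell identity scaling (-0.55, adjusted p = 0.166), and Nr4a3 fell by 0.74 ± 0.17 (adjusted p = 0.00197) but was higher by 0.15 under T cell identity scaling. Nr4a1 did not pass the test, with 10.1 ± 1.30 CPM against 11.9 ± 0.64 CPM at rest (-0.24, 95% interval -0.64 to 0.16, adjusted p = 0.283), and under T cell identity scaling it was higher and passed (0.63, adjusted p = 0.0202). The median of all tested genes was 0.90 under that scaling, and relative to it Nr4a1 stood at -0.26 and Nr4a3 at -0.75. Egr3 gave 0.20 with an interval from -1.67 to 2.07 (adjusted p = 0.870), and this turned on single libraries: it was 3.80 and past the threshold without rest replicate 2 (adjusted p = 0.0176), and -0.80 without rest replicate 1.

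At 4 h of co-culture, Nr4a3 and Nr4a1 were higher than at rest and Egr1 was lower, in a comparison in which 34.2% of tested genes rose and 26.7% fell. Nr4a3 rose 5.07-fold, to 88.5 ± 12.3 CPM, against 17.5 ± 0.11 CPM at rest (log2 2.34 ± 0.16, adjusted p = 4.51e-08). Nr4a1 rose 2.93-fold, to 34.99 ± 1.99 CPM, against 11.9 ± 0.64 CPM at rest (1.55 ± 0.18, adjusted p = 5.24e-06). Egr1 fell 3.38-fold, to 89.1 ± 8.81 CPM, against 301 ± 27.2 CPM at rest (-1.76 ± 0.21, adjusted p = 8.78e-06), and did not pass under T cell identity scaling (-0.45, adjusted p = 0.0878). Nr4a2 did not pass the test at 17.0 ± 3.52 CPM against 12.7 ± 0.87 CPM at rest (0.43, interval -0.06 to 0.92, adjusted p = 0.118), but passed at 1.72 under T cell identity scaling (adjusted p = 2.73e-04). Its libraries did not overlap between the groups, as held for 84.3% of tested genes. Egr2 had a difference of -0.51 (interval -1.05 to 0.04, adjusted p = 0.1001), which passed without either peptide 24 h library (adjusted p = 0.0477 without replicate 1 and 0.0485 without replicate 2), with no filter (adjusted p = 0.0192) and with the contrast's groups alone (adjusted p = 0.00521). Under T cell identity scaling Egr2 was higher instead, and passed (0.78, adjusted p = 0.0451). The median of all tested genes was 1.35 under that scaling, and relative to it Egr2 stood at -0.57 and Nr4a2 at 0.37. Egr3 had 1.24 ± 0.82 (adjusted p = 0.210), and passed at 4.85 without rest replicate 2 (adjusted p = 0.00285), with no filter (adjusted p = 0.00910) and at 2.49 under T cell identity scaling (adjusted p = 0.0279). That scaling also gave 3.64 for Nr4a3 and 2.86 for Nr4a1. These libraries carried 5585 to 5800 CPM of epithelial transcripts, against 17.9 to 18.3 CPM at rest, and their part in the levels was not tested.

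At 24 h of co-culture, 5 of the 6 genes were lower than at rest, where 29.3% of tested genes fell and 36.0% rose, although the 3 NR4A genes were higher than at rest under T cell identity scaling (2.17, 0.98 and 0.60 for Nr4a1, Nr4a2 and Nr4a3, adjusted p = 4.30e-07, 0.0147 and 0.0207). Egr2 fell 11.5-fold (log2 -3.53 ± 0.30, adjusted p = 3.20e-07) and Egr1 fell 9.09-fold, to 33.1 ± 8.24 CPM, against 301 ± 27.2 CPM at rest (-3.18 ± 0.22, adjusted p = 4.78e-08). Under T cell identity scaling these falls shrank to -0.90 for Egr2 (adjusted p = 0.0336) and -0.54 for Egr1 (adjusted p = 0.0427). Nr4a3 fell by 2.04 ± 0.18 (adjusted p = 3.98e-07) and Nr4a2 by 1.69 ± 0.25 (adjusted p = 5.48e-05). Nr4a1 fell by 0.48 ± 0.18 (adjusted p = 0.0339), a call that was lost without co-culture 4 h replicate 1 or 2, co-culture 24 h replicate 2, or rest replicate 1 or 2 (adjusted p = 0.0669 to 0.253), under library totals alone (adjusted p = 0.0807) and with the contrast's groups alone (adjusted p = 0.0868). Egr3 did not pass, with a difference of -1.79 ± 1.01 (adjusted p = 0.136), which was -2.81 without rest replicate 1 (adjusted p = 0.00990) and 1.82 without rest replicate 2. Egr3 passed with no filter (adjusted p = 0.00136) and with the contrast's groups alone (adjusted p = 0.0453). Under TMM the median of all tested genes against rest was -0.04 (peptide 4 h), 0.02 (peptide 24 h), 0.05 (co-culture 4 h) and 0.05 (co-culture 24 h). T cell identity scaling sets the 17 T cell genes level only through the median of their log2 deviations, so single genes can still differ. Under it the median of all tested genes was -0.91 (peptide 4 h), 0.90 (peptide 24 h), 1.35 (co-culture 4 h) and 2.71 (co-culture 24 h) against rest. Relative to that median, Nr4a1, Nr4a2 and Nr4a3 in co-culture at 24 h stood at -0.54, -1.73 and -2.10, values that a change of scaling leaves nearly the same by construction. In absolute terms 43 of the 54 differences (6 genes in 9 comparisons) kept their sign under T cell identity scaling. The T cell genes were themselves unequal between groups: Cd8a alone had 29.7 ± 8.73 CPM in co-culture at 24 h and 1354 ± 84.4 CPM with peptide at 4 h, against 146 ± 3.47 CPM at rest.

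**Figure D4:**
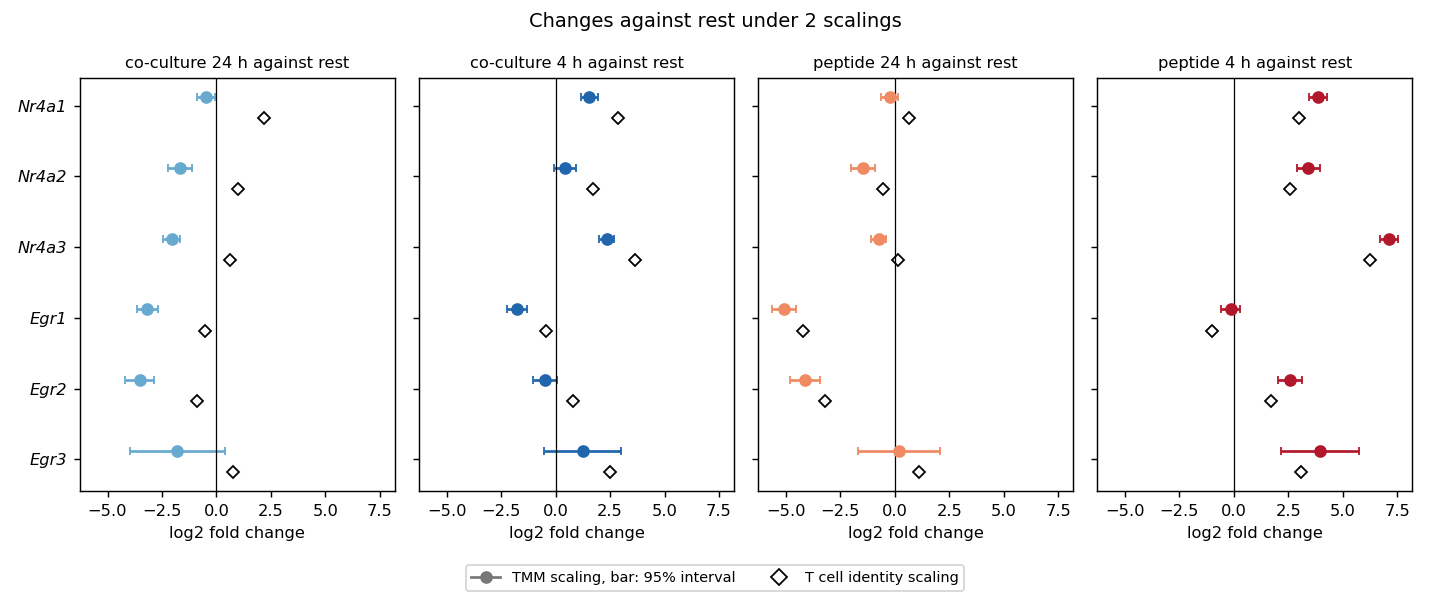
Log2 fold changes of the 6 genes against rest in co-culture at 24 h and 4 h and with peptide at 24 h and 4 h, under TMM scaling (filled points, bars 95% intervals) and with the libraries scaled to T cell identity genes (open diamonds). The 5 genes that rose at 4 h with peptide are right of 0 under both scalings, and the NR4A genes in co-culture at 24 h change sides.

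Set directly against each other at 4 h, co-culture had lower levels than peptide for all 6 genes under TMM (26.3% of tested genes were lower and 35.1% higher), with Egr1 the exception under T cell identity scaling (0.53, adjusted p = 0.0413). Nr4a3 differed most, 27.5-fold, with 88.5 ± 12.3 CPM in co-culture and 2433 ± 8.42 CPM with peptide (log2 -4.78 ± 0.17, adjusted p = 4.10e-10). Egr2 was 8.51-fold lower (-3.09 ± 0.26, adjusted p = 4.11e-07), Nr4a2 7.94-fold lower (-2.99 ± 0.23, adjusted p = 1.48e-07) and Nr4a1 4.95-fold lower (-2.31 ± 0.17, adjusted p = 1.03e-07), although Nr4a1 did not pass under T cell identity scaling (-0.15, adjusted p = 0.493). Under T cell identity scaling the differences shrank to -2.61 for Nr4a3, -0.93 for Egr2 and -0.84 for Nr4a2, which still passed. The median of all tested genes was 2.32 under that scaling, and relative to it Egr1 stood at -1.79 and Nr4a1 at -2.47. Under TMM Egr1 was 3.06-fold lower (-1.62 ± 0.21, adjusted p = 1.93e-05). Egr3 was lower by 2.74 ± 0.75 (adjusted p = 0.00640), a call lost without peptide 4 h replicate 2 or either co-culture 4 h library (adjusted p = 0.0546 to 0.0672), with DESeq2 (adjusted p = 0.0532) and under T cell identity scaling (-0.59, adjusted p = 0.514).

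At 24 h the sources differed for Nr4a3 and Egr1. Egr1 was 3.71-fold higher in co-culture, with 33.1 ± 8.24 CPM against 8.92 ± 1.25 CPM with peptide (log2 1.89 ± 0.23, adjusted p = 1.40e-05), and 28.6% of tested genes were higher. Nr4a3 was 2.46-fold lower in co-culture, with 4.21 ± 0.80 CPM against 10.4 ± 1.34 CPM with peptide (-1.30 ± 0.18, adjusted p = 5.11e-05), and 24.0% were lower, but under T cell identity scaling it was higher by 0.46 (adjusted p = 0.0721). Nr4a1 and Nr4a2 did not pass, at -0.24 (interval -0.64 to 0.16, adjusted p = 0.292) and -0.23 (-0.81 to 0.34, adjusted p = 0.494), but under T cell identity scaling both were higher in co-culture and passed (1.54, adjusted p = 1.84e-05, and 1.53, adjusted p = 0.00109). The median of all tested genes was 1.81 under that scaling, and relative to it Nr4a1 and Nr4a2 stood at -0.27 and -0.28. Egr1 was at 3.67 under that scaling. Egr2 had 0.59 (-0.22 to 1.40, adjusted p = 0.206), and passed at 1.41 without peptide 24 h replicate 2 (adjusted p = 0.0120) and at 2.32 under T cell identity scaling. Egr3 had -1.99 (-4.12 to 0.13, adjusted p = 0.107), and passed with no filter (adjusted p = 2.54e-04) and without peptide 24 h replicate 1 (adjusted p = 0.0252), rest replicate 1 (adjusted p = 0.0326) or rest replicate 2 (adjusted p = 0.0294). The epithelial transcripts summed to 4821 to 4963 CPM in co-culture and 11.6 to 18.9 CPM with peptide, and whether 4T1 cells contributed Egr1 was not tested.

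Between the times, all 6 genes were lower at 24 h than at 4 h with either source. With peptide, 24.6% of tested genes were lower and 28.2% higher at 24 h, and Nr4a3 ranked 18 among the lowest fold changes of 14729 genes. It fell to 10.4 ± 1.34 CPM at 24 h, against 2433 ± 8.42 CPM at 4 h, 233-fold lower (log2 -7.87 ± 0.20, adjusted p = 3.35e-11). Egr2 fell 104-fold (-6.70 ± 0.34, adjusted p = 5.84e-09), Egr1 30.6-fold (-4.94 ± 0.25, adjusted p = 5.91e-09), Nr4a2 29.4-fold (-4.88 ± 0.26, adjusted p = 8.54e-09) and Nr4a1 17.1-fold (-4.10 ± 0.19, adjusted p = 2.84e-09). Egr3 fell by 3.77 ± 0.80 (adjusted p = 0.00146). It was at -3.14 without peptide 24 h replicate 1 and -4.90 without peptide 24 h replicate 2, and did not pass under T cell identity scaling (-1.99, adjusted p = 0.0556). Egr2 was at -7.50 without peptide 24 h replicate 2. For the 5 genes other than Egr3, falls ran from -2.37 (Nr4a1) to -6.11 (Nr4a3) under T cell identity scaling.

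In co-culture, 8.02% of tested genes were lower and 8.50% higher at 24 h. Nr4a3 again fell most, to 4.21 ± 0.80 CPM at 24 h, against 88.5 ± 12.3 CPM at 4 h, 20.9-fold lower (log2 -4.39 ± 0.18, adjusted p = 2.12e-08). Egr2 fell 8.12-fold (-3.02 ± 0.30, adjusted p = 1.91e-05), Nr4a2 4.34-fold (-2.12 ± 0.25, adjusted p = 6.65e-05), Nr4a1 4.10-fold (-2.03 ± 0.18, adjusted p = 6.53e-06) and Egr1 2.69-fold (-1.43 ± 0.21, adjusted p = 4.92e-04). Egr3 fell by 3.03 ± 0.93 (adjusted p = 0.0423), a call lost with DESeq2 (adjusted p = 0.0793), under library totals alone (adjusted p = 0.0592) and without any 1 of the peptide 4 h, co-culture 4 h or co-culture 24 h libraries (adjusted p = 0.0519 to 0.263). Under T cell identity scaling Nr4a2, Egr1 and Egr3 no longer passed (adjusted p = 0.0557, 0.753 and 0.138), and Nr4a3, Egr2 and Nr4a1 were at -3.04, -1.68 and -0.69.

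The difference between these falls was tested as the interaction of source and time. It passed the test and was above 0 for 5 of the 6 genes, meaning a smaller fall in co-culture, and 15.8% of tested genes were called in that direction and 20.2% in the other. The falls differed by 3.68 ± 0.45 for Egr2 (adjusted p = 4.06e-05), 3.51 ± 0.31 for Egr1 (adjusted p = 3.12e-06), 3.48 ± 0.24 for Nr4a3 (adjusted p = 4.01e-07), 2.76 ± 0.35 for Nr4a2 (adjusted p = 5.02e-05) and 2.06 ± 0.25 for Nr4a1 (adjusted p = 3.50e-05), all on the log2 scale. Egr2 reached 4.48 without peptide 24 h replicate 2. Egr3 had 0.74 ± 1.29 (adjusted p = 0.701), and an interval from -2.04 to 3.53 does not set its falls apart or show them alike. The 5 calls also held under T cell identity scaling, with values from 1.68 to 3.25.

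**Figure D5:**
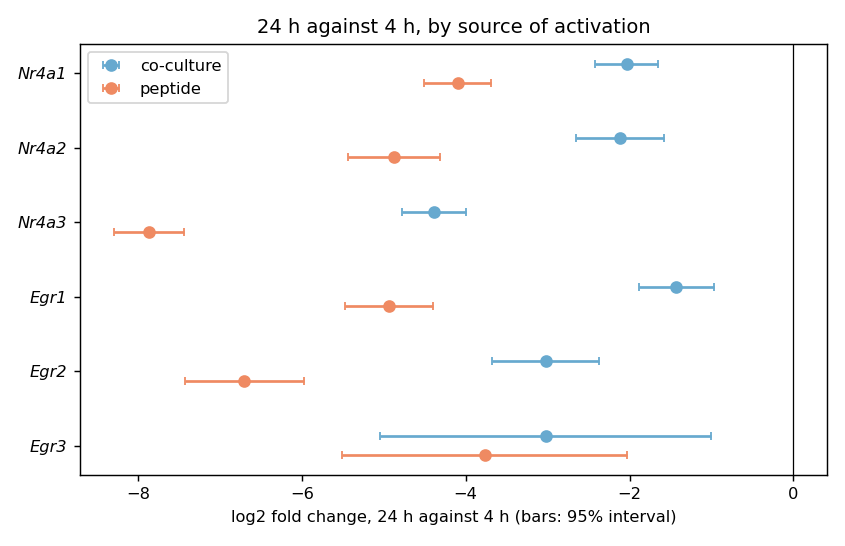
Log2 fold change of each gene at 24 h against 4 h in co-culture (blue) and with peptide (orange), with 95% intervals. For 5 genes the intervals of the sources are apart, from Nr4a1 (-2.03 in co-culture and -4.10 with peptide) to Nr4a3 (-4.39 in co-culture and -7.87 with peptide), while those of Egr3 overlap.

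Among the partners of the 6 factors, the EGR corepressor Nab2 changed most. Nab2 had 18.02 CPM in co-culture at 24 h, 30.9 in co-culture at 4 h, 12.98 with peptide at 24 h and 305 with peptide at 4 h, against 3.49 at rest (group means). It was higher than at rest by 2.35 ± 0.21 on the log2 scale in co-culture at 24 h, 3.12 ± 0.21 in co-culture at 4 h, 1.87 ± 0.21 with peptide at 24 h and 6.43 ± 0.23 with peptide at 4 h (adjusted p = 4.55e-10). Nab2 thus stayed above its resting level at 24 h under TMM, when Egr1 and Egr2 stood below theirs. The co-culture libraries also carried epithelial transcripts, and the part of 4T1 cells in their Nab2 level was not tested. The related corepressor Nab1 was lower than at rest with peptide at 24 h (-0.73 ± 0.13, adjusted p = 3.35e-04). Of the retinoid X receptors, which pair with Nr4a1 and Nr4a2, Rxra was higher and Rxrb lower than at rest with peptide at 4 h (0.66 ± 0.24 and -1.06 ± 0.13). Egr4 and Rxrg had too few counts to test.

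Of 18 tested factors that act on immediate early promoters, 5 rose and 9 fell at 4 h with peptide, with a median of -0.50 beside -0.04 over all tested genes. The calcium-responsive factor Nfatc1 rose to 295 ± 50.9 CPM, against 54.0 ± 5.46 CPM at rest (log2 2.45 ± 0.20, adjusted p = 3.26e-07). The other NFAT genes tested, Nfatc3 and Nfatc2, fell, with log2 differences of -2.86 and -1.53 (adjusted p = 1.89e-08 and 1.20e-04). Crem, a CREB family member, rose by 1.12 ± 0.19. Creb1 fell to 69.6 ± 0.04 CPM, against 202 ± 5.11 CPM at rest (-1.54 ± 0.13, adjusted p = 2.98e-07). Mef2c rose to 9.24 CPM, against 0.0280 CPM at rest, in libraries that also carried B cell transcripts, and the part of B cells in that level was not tested. In the other comparisons with rest, 2 rose and 11 fell in co-culture at 24 h (36.0% and 29.3% of all tested genes), 4 rose and 9 fell in co-culture at 4 h (34.2% and 26.7% of all), and 1 rose and 11 fell with peptide at 24 h (29.2% and 26.1% of all). With peptide at 4 h the shares of all genes were 28.8% and 30.7%, and these shares are the background for each list that follows. Srf was 84.6 CPM in co-culture at 24 h, against 243 CPM at rest (-1.52 ± 0.15, adjusted p = 1.41e-06).

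Other immediate early genes moved in both directions in the peptide 4 h libraries. Of 29 tested, 14 rose and 10 fell against rest. Ier3, Nfkbid, Gadd45b and Atf3 rose, with Nfkbid at 449 ± 104 CPM against 15.6 ± 0.01 CPM at rest (log2 4.85 ± 0.21, adjusted p = 1.81e-09). Fos and Fosb, which encode AP-1 subunits, fell, with Fosb at 8.98 CPM against 447 CPM at rest (-5.64 ± 0.32, adjusted p = 1.17e-08) and Fos at 5.57 CPM against 64.8 CPM at rest (-3.54 ± 0.20). The phosphatase gene Dusp1 and the antiproliferative gene Btg2 also fell, with log2 differences of -1.80 and -1.85. In co-culture at 24 h, 3 rose and 23 fell against rest (median -1.85, beside 0.05 over all genes), in co-culture at 4 h 6 rose and 19 fell, and with peptide at 24 h 6 rose and 22 fell (median -1.80). Those that rose in co-culture at 24 h were Fosl1, Klf4 and Ier3, and Fosl1 had 91.8 CPM against 0.501 CPM at rest, in libraries with epithelial transcripts. At 24 h against 4 h, 23 of the 29 fell in co-culture and 26 fell with peptide.

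Genes linked by earlier work to Egr2 and Egr3 in T cells were also counted. Of 18 tested, 13 rose and 4 fell at 4 h with peptide against rest (median 1.81, beside -0.04 over all genes). Tnfrsf9 (4-1BB) reached 2227 CPM against 72.1 CPM at rest (log2 4.95 ± 0.18), and Sema7a, Crtam and the cell cycle inhibitor Cdkn1a rose by 6.19, 4.30 and 3.66. Cdkn1b, another cell cycle inhibitor, the diacylglycerol kinase gene Dgka and the anergy-associated ubiquitin ligase gene Rnf128 fell, with log2 differences of -3.03, -2.72 and -1.46. In co-culture 5 rose and 10 fell at 24 h (36.0% and 29.3% of all tested genes). At 4 h 6 rose and 6 fell, shares near those of all tested genes (34.2% and 26.7%). With peptide at 24 h 6 rose and 10 fell (29.2% and 26.1% of all). Of 16 tested genes linked to NR4A factors, 11 rose and 2 fell at 4 h with peptide (median 1.27), with the inhibitory receptor genes Pdcd1 at 356 CPM against 12.7 CPM at rest (4.81 ± 0.15) and Havcr2 at 1485 CPM against 48.5 CPM at rest (4.94 ± 0.18). The inhibitory receptor gene Ctla4 fell by 4.91 ± 0.20, to 30.2 CPM, against 906 CPM at rest. Of these 16, 3 rose and 10 fell in co-culture at 24 h, 5 rose and 7 fell in co-culture at 4 h, and 6 rose and 8 fell with peptide at 24 h. Of the 17 T cell identity genes, 0 rose and 15 fell in co-culture at 24 h, and 1 rose and 12 fell in co-culture at 4 h. With peptide 1 rose and 10 fell at 24 h, and 11 rose and 4 fell at 4 h. The part of T cell RNA content in the counts of both lists was not tested. The lists were written with earlier results of these data known, and their counts are descriptions.

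The genes whose pattern over the 10 libraries was most like each member were found by Pearson's r of log2 CPM among 10688 genes, as a description that shares library, depth and grouping. For Nr4a3 they were Tnfsf14 (r = 0.992), Ccl3 (0.990) and Ccl4 (0.985). For Nr4a1 they were Xcl1 (0.986), Slc41a1 (0.984) and Ccl3 (0.983), and for Nr4a2 they were Sla (0.994), Jarid2 (0.994) and Kdm6b (0.986). For Egr1 they were Ankrd11, Zfp746 and Cry2 (0.982 to 0.984), for Egr2 Cd82, Csnk1g3 and Ier2 (0.974 to 0.979), and for Egr3 Zdhhc14, Rybp and Adora2b (0.915 to 0.933). Among the members themselves, r was 0.954 to 0.991 within the NR4A family, whereas Egr1 had 0.897 with Egr2 and 0.371 with Egr3. Without the 4 co-culture libraries none of these neighbours stayed among the 3 nearest of its gene, so the order rests on which libraries enter.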

How the data were processed

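The authors deposited read counts per Ensembl gene, whole numbers without scaling, with gene lengths and positions in the same table. The submitters' processing notes name the mouse build mm10 and DESeq2 1.36. Per the labels, the libraries were of mRNA and kept the strand. Aligner, counter and strand setting of the counting were not given in the sources used here.

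Genes were tested with edgeR 4.0.16 (R 4.3.3). filterByExpr kept 14729 of 35275 genes (12534 had no count), TMM factors scaled the libraries, and 1 quasi-likelihood fit, with a mean for each group, took in all 10 libraries (common biological coefficient of variation 0.159, residual df 5, prior df 7.82). The 9 contrasts were two-sided, adjusted by Benjamini-Hochberg over all tested genes, with a threshold of 0.05. SE is the log2 fold change over the root of F. The fit was also run on simulated data in which 200 genes were changed, equally up and down, in the peptide 4 h libraries. In the data 8762 genes were called at 4 h with peptide against rest. The simulation therefore did not test the scaling where many genes change. CPM means carry the SD of 2 libraries, and counting intervals are 95% exact Poisson.

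The 6 genes, the gene lists, the motifs and the rules were chosen with earlier results of these data known. Named list genes were up to 4 per direction and contrast by p. Like genes were the 3 with the highest Pearson's r of log2 CPM (prior count 2) among named genes with at least 5 CPM in their highest group. Mrtfa and Mrtfb were read under their older symbols Mkl1 and Mkl2, and Cd244a was not matched. Libraries of a group were not duplicates (mean chi-square per gene 6.94 to 47.7). Alternatives were DESeq2 1.42.0, DESeq2 size factors, library totals alone, scaling to 17 T cell genes, no filter, a minimum of 10 counts, the groups of a contrast alone, a replicate block, and leaving out each library. Promoters were RefSeq windows of GRCm38.p6, in which Nr4a3 starts at 48045305, against 48045153 in the deposited table.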

Additional observations from a re-analysis of the deposited data

Results flagged for a closer look

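For 5 of the 6 genes the change from 4 h to 24 h differed between co-culture and peptide by a test of that difference (edgeR, interaction of source and time, adjusted p under 0.05). The co-culture change minus the peptide change was 2.06 for Nr4a1, 2.76 for Nr4a2, 3.48 for Nr4a3, 3.51 for Egr1 and 3.68 for Egr2 on the log2 scale. In each case both changes were falls and the fall with peptide was the larger. At 4 h all 5 genes were lower in co-culture than with peptide under TMM. Under T cell identity scaling, however, Egr1 was higher in co-culture (0.53, adjusted p = 0.0413) and Nr4a1 did not pass (-0.15, adjusted p = 0.493). The median of all tested genes was 2.32 under that scaling. Relative to it Egr1 stood at -1.79 and Nr4a1 at -2.47, values that a change of scaling leaves nearly the same by construction. Among the 5 genes, 24 h levels differed between the sources for Nr4a3 (4.21 ± 0.80 CPM in co-culture and 10.4 ± 1.34 CPM with peptide, a direction that turned under T cell identity scaling) and Egr1 (33.1 ± 8.24 CPM in co-culture and 8.92 ± 1.25 CPM with peptide).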

How the results depend on the processing

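Of the 54 results (6 genes in 9 comparisons), all 54 kept their direction and side of the threshold with DESeq2 size factors, a minimum of 10 counts and the replicate block, which left counts of higher and lower genes at 5 and 0 (peptide 4 h against rest), 0 and 4 (peptide 24 h), 2 and 1 (co-culture 4 h) and 0 and 5 (co-culture 24 h). Under DESeq2 52 did, with library totals alone 51, with the groups of a contrast alone 51, with no filter 50 and with T cell identity scaling 31. Under T cell identity scaling the direction turned for Nr4a1 (0.63) and Nr4a3 (0.15) with peptide at 24 h against rest, Egr2 (0.78) in co-culture at 4 h, Nr4a1 (2.17), Nr4a2 (0.98), Nr4a3 (0.60) and Egr3 (0.76) in co-culture at 24 h, Egr1 (0.53) in co-culture against peptide at 4 h, and Nr4a1 (1.54), Nr4a2 (1.53) and Nr4a3 (0.46) at 24 h. By its construction that scaling moved the median of all genes. The higher and lower genes then numbered 5 and 1 (peptide 4 h), 1 and 2 (peptide 24 h), 5 and 0 (co-culture 4 h), 3 and 2 (co-culture 24 h), 1 and 3 (co-culture against peptide, 4 h) and 4 and 0 (24 h), and 3 fell between times in co-culture. Of 14729 tested genes, that scaling called 9298, 8976, 10572, 12244, 12768 and 12303 in these comparisons, in order, and 11168 between times in co-culture. Of those calls 20.6%, 84.0%, 91.4%, 98.3%, 96.9%, 94.9% and 98.6% were higher. With library totals alone 1 gene was lower with peptide at 4 h, where 9074 genes were called and 31.0% of them were higher. With no filter 3 were higher and 2 lower in co-culture at 4 h, 6 lower in co-culture at 24 h and 2 lower in co-culture against peptide at 24 h, and with the groups alone 2 were lower in co-culture at 4 h. The cause of these shifts was not tested.

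Same-numbered libraries of different groups deviated with correlations of -0.161 to 0.081 over 10 pairs, which gives no sign of pairing by replicate number. Weak pairing could leave such values too, and the labels do not say whether libraries were paired. Leaving out 1 library turned the direction of 5 results, none of which passed when turned: Egr1 with peptide at 4 h (-0.47 to 0.12), Egr3 with peptide at 24 h (-0.91 to 3.80, and -0.80 without rest replicate 1), Egr3 in co-culture at 24 h (-3.15 to 1.82), Nr4a2 in co-culture against peptide at 24 h (-0.53 to 0.19) and the Egr3 interaction (-0.63 to 1.88). Higher genes then ranged over 0 to 1 (peptide 24 h), 2 to 3 (co-culture 4 h) and 1 to 2 (co-culture against peptide, 24 h), and lower genes over 1 to 2 (co-culture 4 h), 4 to 5 (co-culture 24 h), 1 to 2 (co-culture against peptide, 24 h), 5 to 6 (at 4 h) and 5 to 6 (between times in co-culture). Of all called genes at 4 h with peptide, 48.4% were higher, and 31.0% were with library totals alone and 20.6% with T cell identity scaling, while in the other comparisons with rest that scaling gave 84.0% to 98.3%, where 52.8% to 56.1% were higher under TMM. In co-culture against peptide the shares were 57.2% at 4 h (79.6% with library totals, 96.9% with T cell scaling) and 54.4% at 24 h (94.9% of 12303 calls against 54.4% of 7742), between times 53.4% with peptide (77.5% and 96.4%) and 51.5% in co-culture (98.6%), and in the interaction 43.9% (16.0% and 20.9%). Calls between times in co-culture numbered 2433, 11168 with T cell identity scaling, 1189 without co-culture 4 h replicate 1, 848 without replicate 2 and 1322 without co-culture 24 h replicate 2. Depth limits Egr3, with 2 to 83 counts outside the peptide 4 h libraries.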
